A study of Homo sapiens with 8 samples.

Results

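Ribosome biogenesis factors are the proteins that transcribe, modify, cut and fold ribosomal RNA and assemble it with ribosomal proteins in the nucleolus. RNA polymerase I makes the long precursor rRNA, and small nucleolar ribonucleoproteins (snoRNPs) modify its bases and riboses. Separate sets of factors lead the small and the large subunit out towards the cytoplasm. Many of these genes are classic targets of the growth-promoting transcription factor MYC, and podocytes, the epithelial cells that wrap the glomerular capillaries, need this machinery like other cells. The group described here is a list of 40 nucleolar assembly genes, listed as classic MYC targets. Each was found by its symbol in the gene column of the deposited table. All 40 were present, 1 locus each, among 29004 loci in all, and all 40 had at least 1 FPKM in both groups.

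The samples came from 1 stable line of AB8/13 cells, immortalized human podocytes that carry a lentiviral, doxycycline-inducible construct for wild-type LATS2, the Hippo pathway kinase that keeps the coactivator YAP out of the nucleus. Doxycycline at 125 ng/mL switched the construct on for 8 h in 4 samples, named LATS2 OE, and another 4 samples of that line stayed untreated. The drug went to all LATS2 OE samples and to no untreated one, so effects of doxycycline and of LATS2 cannot be told apart. The comparison asks which transcripts differ early after the Hippo pathway is switched on. Poly(A) RNA was sequenced, and the table gives 1 pooled FPKM value (fragments per kilobase of exon, scaled to the number of mapped fragments) for each group. With no sample-level values there is no SD and no test, and no difference has a replicate check. Depth per sample was unknown. FPKM is relative to all mapped fragments, so a change shared by all transcripts would not show, and in bulk RNA fewer expressing cells and less RNA per cell cannot be told apart.

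In most deposited cells of at least 1 FPKM the decimal point stands in the wrong place. A cell with exactly 3 digits after the point can be read at up to 3 levels that differ by powers of 10, and the ratio of both groups was read as the one nearest to 1. Of the 40 factors, 26 had 3 possible levels with this ratio, 12 had 2 and 2 had 1. The reading nearest to 1 was at most 1.44-fold for any factor, whereas the next possible reading of any of them was at least 6.94-fold away from 1. The reading would give a wrong ratio for a gene that changed more than 3.16-fold. Among 1564 named loci with 0.3 to 1 FPKM in untreated samples, where a fall can always be read, 8 (0.512%) were lower by more than that. Values are given below as the LATS2 OE level in percent of the untreated level and as a log2 ratio, and a gene is called lower or higher when both pooled values differ by at least 1.2-fold.

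LATS2 itself, on chromosome 13 of hg19 from 21547173 to 21635722, showed the limit of this reading. Its digits allow a LATS2 OE level 2.01-fold, 20.1-fold or 201-fold that of untreated cells, or 4.97-fold and 49.7-fold lower, so the induction cannot be checked from these digits alone. Of 10 podocyte markers, SYNPO, PODXL, CD2AP and ACTN4 had at least 1 FPKM in both groups. The nuclear factor WT1 stood at 0.413 FPKM in untreated and 0.412 FPKM in LATS2 OE samples. The slit diaphragm gene NPHS1, a defining podocyte marker, was near 0 in this line, at 0.00875 and 0.00616 FPKM. All 5 endothelial markers were below 1 FPKM in both groups, as were 2 of 4 mesangial, 3 of 4 tubular and 3 of 4 leukocyte markers.

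All 40 ribosome biogenesis factors had a ratio of LATS2 OE to untreated below 1, and 16 of them were lower past 1.2-fold. The lowest was RRS1 at 69.4% of the untreated level and the highest was FBL at 98.2%, with a median of 84.7% (log2 ratio -0.24). None of the 40 factors was higher past 1.2-fold. Over all 11917 named loci with at least 1 FPKM in both groups, 6.16% were lower past 1.2-fold and 5.85% were higher. Of these loci 51.5% had a ratio below 1, and their median log2 ratio was -0.0039. For each count past 1.2-fold in a role or gene list below, these shares are the background. Of the factors, 29 were lower past 1.1-fold, where the share of all loci was 14.0% (13.9% higher). None was lower past 1.5-fold, where the share of all loci was 1.65% (1.28% higher). A pseudocount of 1 FPKM, added at the lowest level the digits allow, left 8 of the 40 past 1.2-fold. Over all 11917 loci it left 481 lower and 407 higher.

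**Figure D1:**
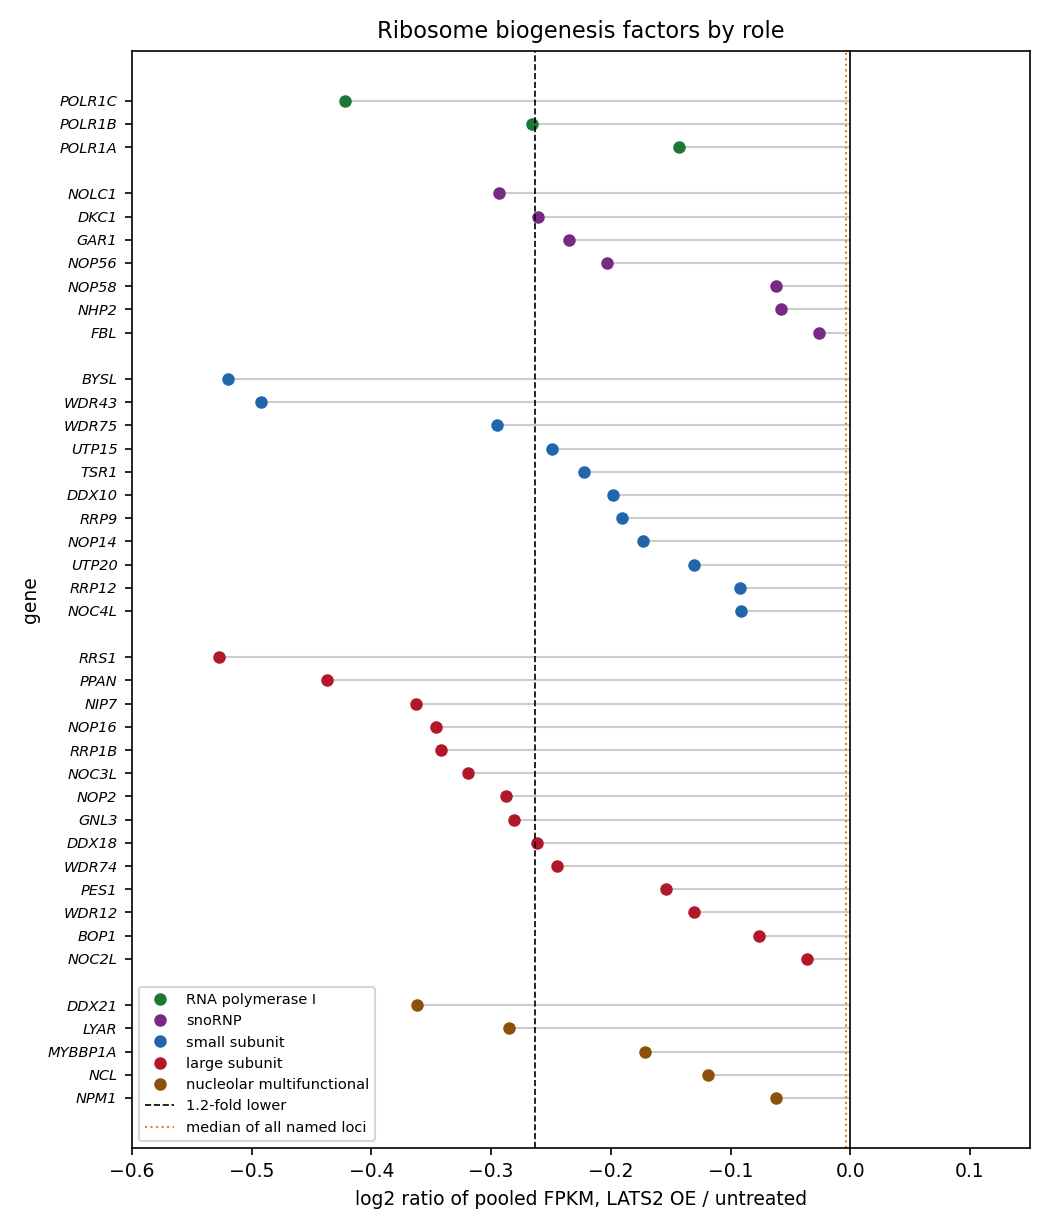
Each point is 1 of the 40 factors, placed by the log2 ratio of its pooled FPKM, LATS2 OE over untreated (horizontal axis). Points are grouped by role. The dashed line marks 1.2-fold lower and the dotted line the median of all named loci with at least 1 FPKM in both groups. All 40 points lie left of 0, from -0.53 for RRS1 to -0.03 for FBL, and 16 lie at or beyond the dashed line.

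**Figure D2:**
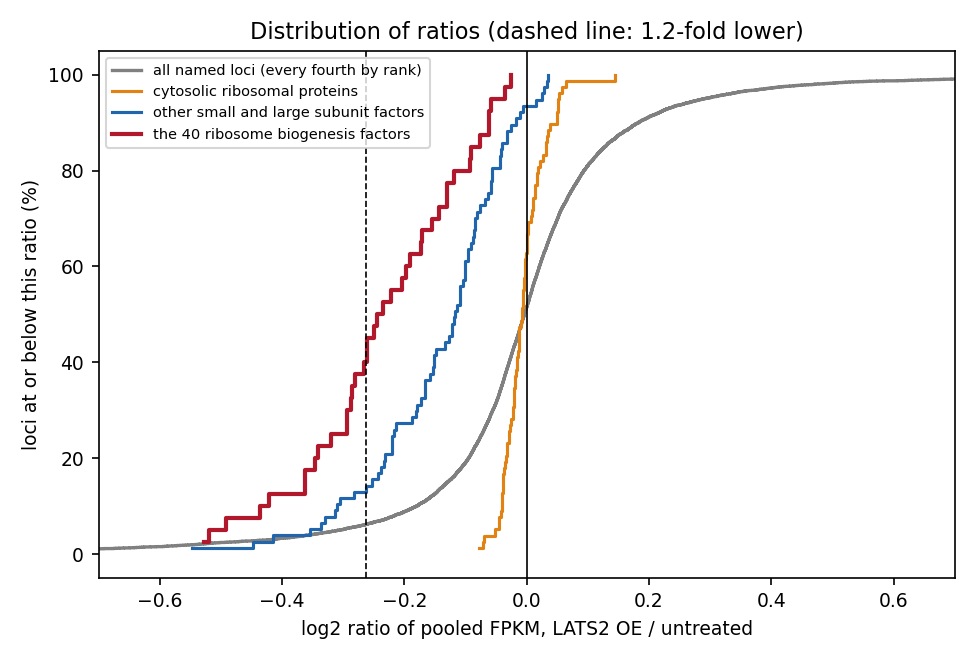
Cumulative share of genes (vertical axis, percent) at or below a given log2 ratio of LATS2 OE to untreated (horizontal axis). Curves show the 40 factors, other assembly factors, cytosolic ribosomal proteins and named loci with at least 1 FPKM in both groups. The dashed line marks 1.2-fold lower. The curve of the 40 factors reaches its end below 0, while that of the ribosomal proteins climbs steeply around 0.

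MYC binds the E-box with its partner MAX. The 6-base E-box CACGTG, which reads alike on both strands, was searched in RefSeq windows (GRCh38.p14) of 250 bases before to 50 after each annotated start. Of the 40 genes 33 had at least 1 window, 41 windows in all, and 14 of these (34.1%) held the E-box, against 7.26% of all 35116 windows in the table and 9.54% of the windows of named loci with at least 1 FPKM. By gene, 14 of 33 factors (42.4%) held it at 1 of their starts or more, against 8.77% of all genes, 13.0% of genes with at least 1 FPKM in both groups and 6.35% of cytosolic ribosomal protein genes (4 of 63). The share was 36.7% for other small subunit factors (11 of 30), 35.3% for other large subunit factors (12 of 34), 23.5% for translation factors (8 of 34), 13.4% for mitochondrial ribosomal proteins (9 of 67) and 59.3% for other MYC target genes (16 of 27), so the motif was not particular to the 40. The 30 bases around the E-box, in capitals, show where the motif sits in 6 of the 7 factors past 1.2-fold that held it. The other is NOP2, whose E-box at base 35 lies too near the window end for 12 bases after it. The stretches are written 5′ to 3′ on the strand of the gene.
WDR43: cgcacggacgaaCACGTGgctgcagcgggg
BYSL: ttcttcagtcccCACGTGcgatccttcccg
DDX21: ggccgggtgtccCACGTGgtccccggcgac
NOC3L: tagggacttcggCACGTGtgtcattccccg
LYAR: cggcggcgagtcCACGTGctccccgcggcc
GNL3: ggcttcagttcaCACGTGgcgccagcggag
On GRCh38.p14 these stretches lie at chr2:28894658-28894687 (plus strand) for WDR43, chr6:41921515-41921544 (plus) for BYSL, chr10:68956604-68956633 (plus) for DDX21, chr10:94362903-94362932 (minus) for NOC3L, chr4:4290068-4290097 (minus) for LYAR and chr3:52686026-52686055 (plus) for GNL3. Counted from 0 at the annotated start, the first base of the E-box lay at -64 in LYAR, -31 in DDX21, 3 in WDR43, 6 in GNL3, 19 in NOC3L and 28 in BYSL. A match is a description of the sequence and does not show binding. The 40 were listed as classic MYC targets, so their E-box share is not independent of how they were chosen.

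Factors with and without the E-box overlapped in their ratios. The 14 factors that held it had log2 ratios from -0.52 to -0.03 with a median of -0.26, and 7 of them were lower past 1.2-fold. The 19 factors without it had ratios from -0.44 to -0.04 with a median of -0.22, and 6 of them were past 1.2-fold. Among named loci of at least 1 FPKM with a window, 1153 held the motif and 7726 did not. Their medians on the log2 scale were -0.02 and -0.00072. Lower past 1.2-fold were 73 of the 1153 with the motif and 389 of the 7726 without it. FBL held the E-box 6 bases from its start and had the ratio nearest to 1 of all 40.

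**Figure D3:**
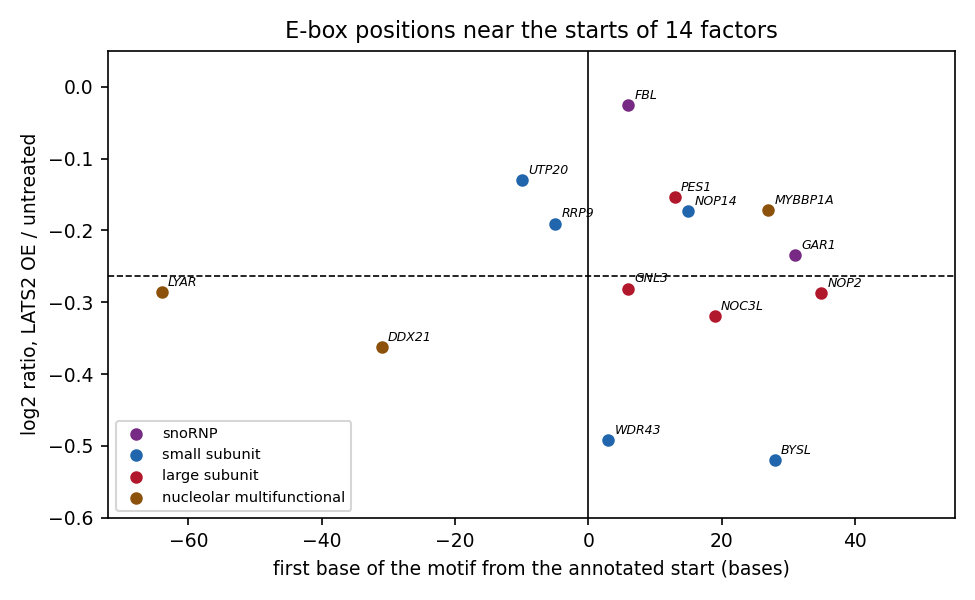
The first base of each E-box relative to the annotated start (horizontal axis, bases) against the log2 ratio of LATS2 OE to untreated (vertical axis) for the 14 factors that held it, coloured by role; the dashed line marks 1.2-fold lower. All motifs but that of LYAR lie within 35 bases of the start, and the ratios spread from -0.52 (BYSL) to -0.03 (FBL).

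Of the 3 polymerase I subunits, 2 were lower past 1.2-fold. POLR1C, a subunit shared with RNA polymerase III, stood at 74.7% of the untreated level, a log2 ratio of -0.42, with 2.53, 25.3 or 253 FPKM in untreated cells against 1.89, 18.9 or 189 in LATS2 OE cells. POLR1B, the second largest subunit, stood at 83.2%, with 11.8 or 118 FPKM against 9.79 or 97.9. POLR1A, which carries the catalytic centre, stood at 90.6% and was not past 1.2-fold. Of 12 other polymerase I factors, 0 were higher past 1.2-fold, and the median log2 ratio was -0.10. Lower past 1.2-fold was 1 of these 12 (8.33%), against 6.16% of all loci. That 1 was CD3EAP, another polymerase I subunit, at 69.6%. The subunit POLR1E stood at 84.1% and the promoter factors TAF1A and TAF1D at 85.5% each, while UBTF, the factor that opens rDNA for transcription, stood at 112% with a log2 ratio of 0.16.

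Of the 7 snoRNP proteins, 1 (14.3%) was lower past 1.2-fold, against 6.16% of all loci. This was NOLC1, a chaperone of snoRNPs, at 81.6% of the untreated level. With the pseudocount, 0 of these proteins were lower past 1.2-fold. The cells of NOLC1 have unequal numbers of digits, so the alternative limited to equal numbers leaves it out and does not bear on its ratio. The box H/ACA particles change uridine to pseudouridine. Their enzyme DKC1 stood at 83.4%, just short of 1.2-fold, and GAR1 at 85.0%, whereas NHP2 stood at 96.1% with 2.08, 20.8 or 208 FPKM in untreated against 2.001, 20.01 or 200.1 in LATS2 OE cells. NOP10, a partner in this particle that is outside the list of 40, stood at 100.1%. In the box C/D particle, which methylates ribose, NOP56 stood at 86.8% and its relative NOP58 at 95.8%, with 6.90, 69.0 or 690 FPKM against 6.61, 66.1 or 661. FBL, the methyltransferase of that particle, stood at 98.2%, with 2.08, 20.8 or 208 FPKM against 2.04, 20.4 or 204. Among 9 other snoRNP factors, 0 passed 1.2-fold in either direction, with a median log2 ratio of -0.08.

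Among 11 small subunit factors, 3 were lower past 1.2-fold, with a group median of 87.2%. BYSL, which acts late on the pre-40S particle, stood at 69.7% of the untreated level, a log2 ratio of -0.52, with 2.07, 20.7 or 207 FPKM in untreated cells against 1.45, 14.5 or 145. WDR43, a protein of the small subunit processome that also bears on rDNA transcription, stood at 71.1%, with 2.95, 29.5 or 295 FPKM against 2.09, 20.9 or 209. Of all named loci with at least 1 FPKM in both groups, 2.19% had a lower ratio than BYSL and 2.43% than WDR43. WDR75 and UTP15, which sit in one subcomplex with WDR43, stood at 81.5% and 84.1%. Their partners outside the list, HEATR1, NOL11 and CIRH1A, stood at 90.2%, 92.2% and 96.2%. The remaining factors were TSR1, a GTPase-like factor of late pre-40S particles, at 85.7%, the helicase DDX10 at 87.2%, the U3 snoRNP protein RRP9 at 87.6%, the processome protein NOP14 at 88.7%, the scaffold UTP20 at 91.4%, RRP12 at 93.8% and NOC4L, a partner of NOP14, at 93.9%. Of 38 other small subunit factors, 5 were lower past 1.2-fold, 0 were higher and 35 had a ratio below 1, with a median log2 ratio of -0.14. The lowest of them were RCL1 at 75.0%, PWP2 at 78.2%, WDR3 at 79.5% and DDX47 at 80.6%.

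The 14 large subunit factors had a median of 82.1% of the untreated level, and 8 of them were lower past 1.2-fold. RRS1, which helps to bring the 5S ribonucleoprotein into the particle, was the lowest of all 40 at 69.4%, a log2 ratio of -0.53, with 2.59 or 25.9 FPKM in untreated cells against 1.80 or 18.0. The values of PPAN, an rRNA processing factor, come from a locus that also bears the names P2RY11 and PPAN-P2RY11. That locus stood at 73.9%, with 3.25, 32.5 or 325 FPKM against 2.40, 24.0 or 240.4. NIP7, which acts on pre-60S particles, NOP16, RRP1B, which recruits a phosphatase to the nucleolus, and NOC3L stood at 77.7%, 78.7%, 78.9% and 80.1%. NOP2, which methylates 28S rRNA, stood at 81.9% and GNL3 (nucleostemin), a nucleolar GTPase, at 82.3%. The helicase DDX18 at 83.4% and WDR74 at 84.4% lay just short of 1.2-fold. The PeBoW complex, made of PES1, BOP1 and WDR12, kept closer to the untreated level, with 89.9%, 94.9% and 91.3%. NOC2L, a partner of NOC3L in export, stood at 97.6%, with 5.12, 51.2 or 512 FPKM against 4.999, 49.99 or 499.9. Of 39 other large subunit factors, 5 were lower past 1.2-fold, 0 were higher and 37 had a ratio below 1, with a median log2 ratio of -0.11. URB2 at 68.4%, GTPBP4 at 73.3%, BRIX1 at 79.2% and MAK16 at 80.5% were the lowest of these, while RPF2, the partner of RRS1, stood at 93.5%.

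Among the abundant nucleolar proteins with several functions, NPM1 (nucleophosmin), a histone and ribosome chaperone, was the 1 factor whose digits allow a single ratio. It had 1051 FPKM in untreated and 1007 FPKM in LATS2 OE cells, 95.8% of the untreated level. NCL (nucleolin), which binds rDNA and pre-rRNA, had 366 FPKM in untreated cells and, by the reading nearest to 1, 337 FPKM in LATS2 OE cells, 92.1%. DDX21, a helicase that acts on both polymerase I transcription and rRNA processing, stood lower at 77.8%, with 10.7 or 107 FPKM against 8.298 or 82.98. LYAR, a nucleolar growth regulator, stood at 82.1% and MYBBP1A, a repressor of rDNA transcription, at 88.8%. In this role 2 of 5 genes, DDX21 and LYAR, were past 1.2-fold.

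Some factors also house snoRNAs in their introns. In the GENCODE annotation on GRCh37, 9 of the 40 (22.5%) held a snoRNA gene on their own strand, namely POLR1C, NOP56, NOP58, DKC1, WDR43, TSR1, GNL3, PPAN and NCL, against 2.79% of 10443 protein-coding loci with at least 1 FPKM. NOP56, for example, holds SNORD86 and SNORD110, and NCL holds SNORD20 and SNORD82. The hosting factors had a median log2 ratio of -0.26, and 4 of 9 were past 1.2-fold. The other 31 had a median of -0.23, and 12 of them were past 1.2-fold. The libraries were poly(A) selected, so the host transcripts and not the snoRNAs were measured.

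Cytosolic ribosomal proteins, the parts that these factors assemble, stood at the untreated level. Of 78 with at least 1 FPKM in both groups, 0 were lower and 0 higher past 1.2-fold, against 6.16% and 5.85% of all loci, with a median of 99.5%. RPL5 and RPL11, which bind 5S rRNA, stood at 100.7% and 99.5%. Ribosomal protein genes have many processed copies in the genome, and how reads were shared among copies is not known.

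Other parts of protein synthesis also lay near the untreated level. Of 75 mitochondrial ribosomal proteins, 0 passed 1.2-fold in either direction, with a median of 98.0% and MRPS12 lowest at 87.3%. Of 41 translation factor loci, 0 passed in either direction, 37 had a ratio below 1, and the median was 97.3%, with EIF3J lowest at 88.9%. EEF1A1 was listed at 0 in both groups. The 20 cytosolic tRNA synthetases, none of them past 1.2-fold, had a median of 98.8%, with FARSA at 90.4% and NARS at 91.9%. The 10 housekeeping genes with a level had log2 ratios from -0.06 to 0.09 and a median of 0.01, and ACTB was listed at 0 in both groups.

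**Figure D4:**
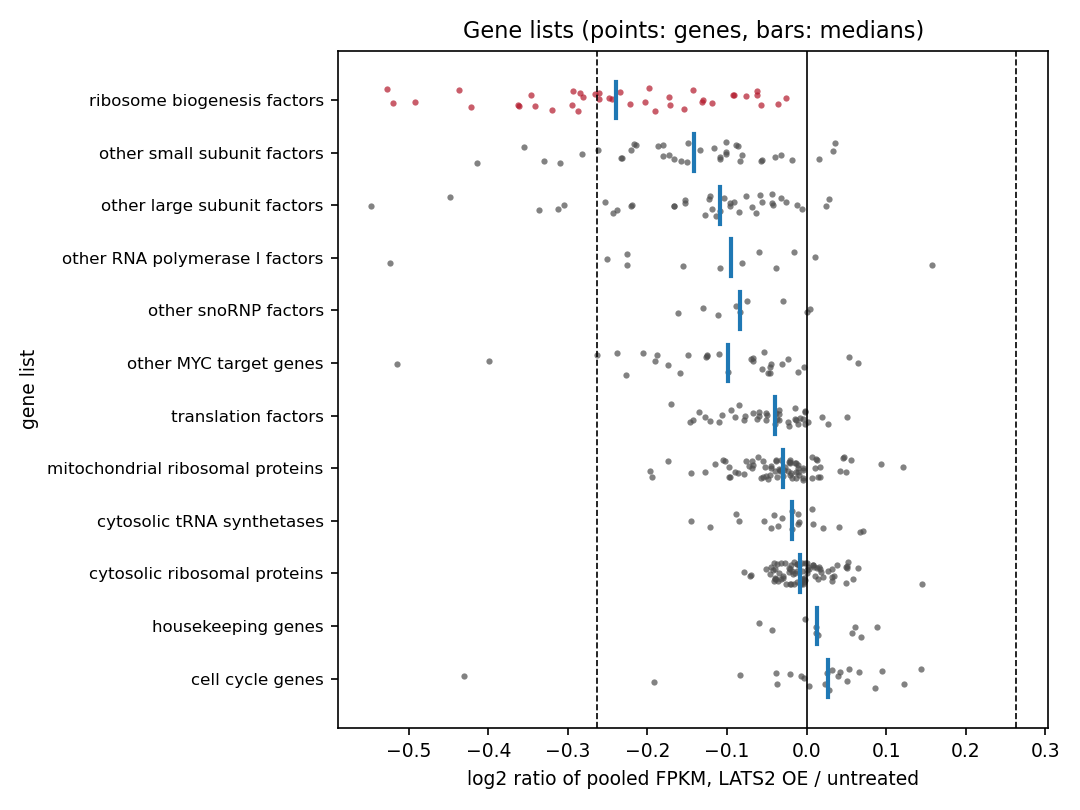
Each point is a gene with at least 1 FPKM in both groups, placed by its log2 ratio of LATS2 OE to untreated (horizontal axis) within its gene list (vertical axis); blue bars are medians and dashed lines mark 1.2-fold. The 40 factors have a median of -0.24, the medians of other assembly factors lie between it and 0, and cytosolic ribosomal proteins gather around -0.01.

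MYC stood at 41.9% of the untreated level, a log2 ratio of -1.25, when its digits were read as the ratio nearest to 1. The next possible reading, a 4.19-fold higher level, is also allowed by the digits. MAX, its dimer partner, stood at 96.0%. The MYC antagonists MXD1, MXD4, MNT and MXI1 stood at 122%, 118%, 114% and 112% of the untreated level, while MXD3 stood at 102% and MGA at 94.4%. Of 10 genes of this network with at least 1 FPKM, MYC was past 1.2-fold lower and MXD1 past 1.2-fold higher. Among 31 loci of other MYC target genes, 3 (9.68%) were lower past 1.2-fold, against 6.16% of all loci, and 0 were higher. A ratio below 1 was seen in 29, and the median log2 ratio was -0.10. With the pseudocount, 1 of the 31 was lower past 1.2-fold. The 3 without it were TFAP4, a transcription factor, at 70.0%, the coactivator PPRC1 at 75.8% and the pseudouridine synthase PUS7 at 83.3%. PUS7 only just passed, at 1.2006-fold lower. GRWD1, a histone-binding protein that also acts in ribosome assembly, followed at 84.8%.

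Of 22 cell cycle genes, 1 (4.55%) was lower past 1.2-fold, CCND1 at 74.2%, against 6.16% of all loci. None was higher, and the median log2 ratio was 0.03. CCNA2 stood at 87.5%, MKI67 at 110% and CCNE1 at 109%. Whether these genes bear on the ratios of the 40 factors was not tested.

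The named loci of some factors are longer than their genes. In 9 of the 40, among them BYSL, POLR1C, MYBBP1A and NIP7, the locus was over 1.5 times the length of the annotated gene. BYSL has the largest excess, since its locus on chromosome 6 of hg19 from 41888951 to 42016632 is 11.1 times as long as the gene, which is annotated from 41889237 to 41900784. POLR1C has a locus on chromosome 6 from 43303739 to 43543812, 4.55 times the length of the gene. WDR43, on chromosome 2 from 29117509 to 29171086, has a locus close to its annotated length. Without the 9 long loci, 11 of 31 factors were past 1.2-fold and all 31 had a ratio below 1, with a median of -0.23. The library kit is not stated to mark strand, and 17 of the 40 genes overlap a gene on the other strand, whose reads cannot be told apart. Of the other 23, 11 were past 1.2-fold and all 23 had a ratio below 1, with a median log2 ratio of -0.26. Overlap was judged over the annotated gene only. The longer loci of BYSL, PPAN and NOP56, which are among the 23, were not checked beyond it. Over all loci, with none left out, 6.16% were lower past 1.2-fold.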

How the data were processed

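RNA of 4 untreated and 4 LATS2 OE samples of a stable human podocyte line was sequenced as single reads after poly(A) selection. The authors trimmed reads with Trimmomatic 0.33, aligned them with TopHat to hg19 and used Cufflinks. For TopHat and Cufflinks no version, and for the counting no annotation, is named in the sources used here. The deposited table is a Cuffdiff result with 1 pooled FPKM value per group and locus, made by the authors from 4 samples each. It also holds the authors' own comparison (a fold change, a statistic, p and q values and a call), which was not used. Nothing says whether the 4 samples of a group were separate cultures.

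Levels were read from the digits with the decimal point placed so that the ratio of both groups was nearest to 1, which allows at most 3.16-fold. YAP target genes, whose ratios may exceed that limit, were not analysed here. Named loci with at least 1 FPKM in both groups were kept, and a gene was called past 1.2-fold with no test. Python 3.11.15, pandas 2.3.3, numpy 2.4.6 and matplotlib 3.10.9 were used. Promoter windows came from RefSeq on GRCh38.p14, and gene extents and snoRNAs from GENCODE release 44 lifted to GRCh37.

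The factors and the other gene lists were chosen with earlier results of these data known, and support nothing by their direction. All 40 factors were named, with levels for the 5 lowest, the 5 highest and those described for their role, together with LATS2, MYC and up to 4 genes of each other list with the largest ratios. Partners of the factors and genes of the MYC network outside this rule (HEATR1, NOL11, CIRH1A, NOP10, RPF2, RPL5, RPL11, UBTF, MAX, MXI1, MXD3, MGA) were chosen after their values were seen. Alternatives were a 1.1-fold and a 1.5-fold threshold, no minimum FPKM, a pseudocount of 1 FPKM, division by the median ratio, cells with equal numbers of digits, and leaving out loci with several names. Leaving out long loci and genes overlapping another strand was added after seeing the data. The 13 mitochondrially encoded genes were not analysed here, and some other genes are not reported here.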

Additional observations from a re-analysis of the deposited data

How the results depend on the processing

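Each factor that entered an alternative had a ratio below 1 in it, and 0 were past the threshold higher, while the number past the threshold moved. Past 1.1-fold, 29 factors were lower (snoRNP 4, small subunit 8), beside 1671 lower and 1654 higher loci. Past 1.5-fold, 0 factors were lower in any role, beside 197 lower and 152 higher loci. With no minimum FPKM, 16 of the 40 factors were lower, beside 2266 lower and 3204 higher of 18501 loci. With a pseudocount of 1 FPKM, 8 factors were lower (RNA polymerase I 1, snoRNP 0, large subunit 4, multifunctional 1), beside 481 lower and 407 higher loci. After division by the median ratio 15 factors were lower (RNA polymerase I 1), beside 718 lower and 713 higher loci. Among the 30 factors whose cells had equal numbers of digits, 10 were lower (snoRNP 0, large subunit 4). This alternative changes no ratio. It leaves out NOLC1, WDR75, NOP2, NOP16, RRS1 and NIP7, which were past 1.2-fold, together with some factors that were not. Over all loci, with none left out, 6.16% were lower past 1.2-fold. With the alternatives added after seeing the data, 11 of 31 were lower without long loci (RNA polymerase I 1, large subunit 5) and 11 of 23 without genes overlapping the other strand (RNA polymerase I 1, large subunit 4, with 23 below 1). Counts of the other gene lists and ratios of single genes moved in 14 results past 1.1-fold, in 7 past 1.5-fold, in 11 with the pseudocount and in 3 or fewer under each other alternative, and 0 changed sign. The median log2 ratio of the factors lay between -0.26 and -0.18. No paired analysis was possible because the table holds 1 pooled column per group, so leaving out a replicate and the replicate block were not run. With no sample values or depth, the precision of a single ratio is unknown.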
